A study of Oryzias latipes with 12 samples.

Results

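A set of 5 genes of lipid handling was followed through the brains of medaka (Oryzias latipes), a fish that breeds under long days: lpin2, gpat3, hacd1, scarb1 and pltp. These 5 of the 26663 genes in the deposited table were picked by symbol, with the transcript levels of these same libraries and their comparisons already known. Their levels and differences are therefore given as a description, and a statement that one of them passed a threshold says where it stood in a fit over all genes and supports nothing further. The tissue held ventral telencephalon, hypothalamus and pituitary, and polyadenylated RNA was sequenced from 12 samples in 4 groups of 3. The groups were wild type under short days (replicates 1, 2 and 3), pd1 knockout under short days (replicates 1, 3 and 4), wild type 12 days after a move from short to long days (replicates 13, 14 and 15) and pd1 knockout 12 days after that move (replicates 13, 14 and 16). All fish were kept under short days first and all were sampled at hour 12. The knocked-out gene is called phod1 in the study's title and pd1 in its labels. The sources used here do not give the allele, the sex or the age of the fish.

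Glycerolipids are built on glycerol-3-phosphate. A glycerol-3-phosphate acyltransferase such as gpat3, an enzyme of the endoplasmic reticulum, adds the first fatty acid. A lipin such as lpin2 later removes the phosphate from phosphatidic acid, which leaves diacylglycerol, the branch point to triglycerides and to the common phospholipids. Very long fatty acids are made by a repeated elongation cycle in which hacd1 encodes one of the dehydratases, and in mammals hacd1 is best known from muscle. Lipids travel between cells on lipoproteins. In mammals scarb1 encodes the receptor that takes cholesteryl esters from high-density lipoprotein, and pltp encodes a secreted protein that moves phospholipids between lipoprotein particles. In the brain, glia supply lipoproteins locally, since the blood-brain barrier keeps most plasma lipoproteins out.

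Levels are in TPM (a length-scaled transcript abundance with the same total in every library), and differences are in log2(TPM + 1) with the standard error (SE) of a linear model over 18218 genes and all 12 libraries. A gene is said to be called, to rise or to fall when its Benjamini-Hochberg adjusted p, by limma over all tested genes, was under 0.05. Whether every library is a different fish is not stated in the labels, so the errors measure only the spread between these samples. Read depth is unknown, since TPM holds no counts. In bulk tissue, fewer cells of a type and less RNA per cell cannot be told apart. The neuronal marker snap25 stood at a mean of 2332 TPM and the pituitary marker pomc at 4523 TPM in short-day wild type, but prl did not exceed 0.35 TPM in any library. Regional markers of the telencephalon or hypothalamus were not read. The loss of pd1 could not be checked, because neither name of that gene matched a symbol of the table. Short-day wild-type replicate 3 stood apart, with the interferon-induced gene rsad2 at 287 TPM, against at most 6.3 TPM in each of the others. Called differences of the members that use it are given with and without it.

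Of the members, 4 separated the genotypes. In the knockout lpin2 and hacd1 were lower and scarb1 and pltp were higher, with no overlap between the 6 wild-type and the 6 knockout libraries, a separation shown by 1.87% of all tested genes. These same 4 were called in the comparison of genotypes over both photoperiods, in which 2.4% of all tested genes were called. The fifth member, gpat3, was the one called between photoperiods in wild type.

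**Figure D1:**
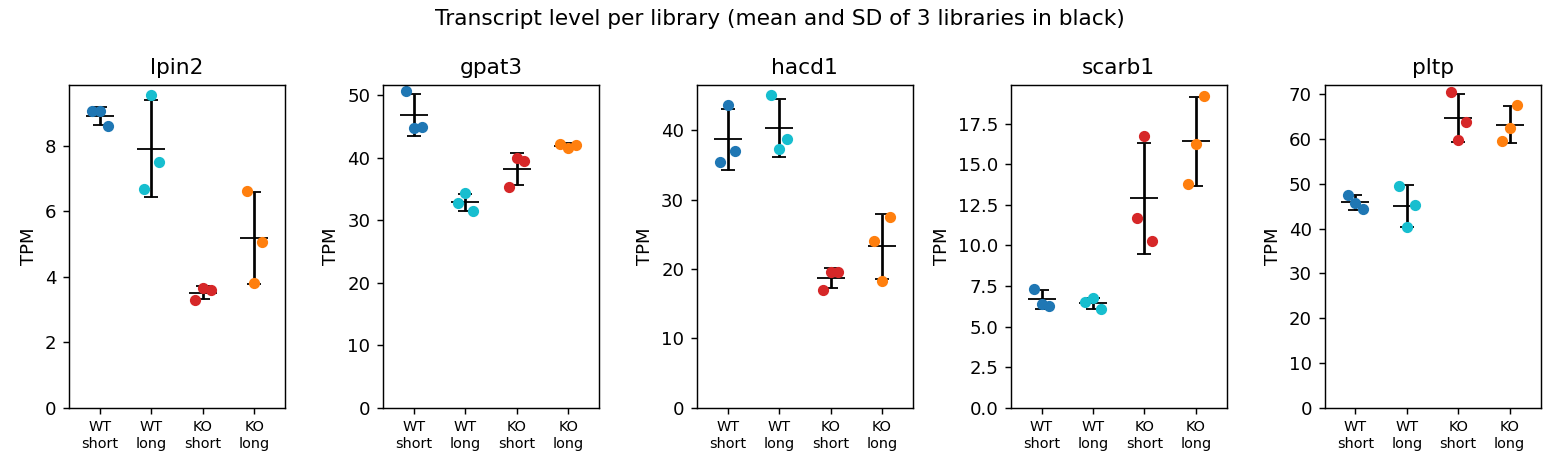
Transcript level in TPM (vertical axis) of each member in every library, by group (horizontal axis; WT, wild type; KO, pd1 knockout; short and long, day length); black bars are the mean and SD of 3 libraries. For lpin2, hacd1, scarb1 and pltp the wild-type and knockout points do not overlap, while gpat3 is lowest in long-day wild type, at 31.5 to 34.3 TPM.

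Of the enzymes that build glycerolipids, the phosphatidate phosphatase gene lpin2 (gene 101158806) was the less abundant member and the one with the larger genotype difference. Under short days it stood at 9.05, 9.07 and 8.60 TPM in wild type. In the knockout under short days it stood at 3.29, 3.67 and 3.59 TPM. These groups lay apart, as those of 19.5% of all tested genes did, and the wild-type mean was 2.53 times the knockout mean (8.91 ± 0.266 and 3.52 ± 0.200, SD, n = 3). The difference of -1.13 (SE 0.17) was called, where 0.664% of all tested genes were. Without short-day wild-type replicate 3 it was -1.16 and the call was lost, as it was without replicate 1 (-1.12) or replicate 2 (-1.12).

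Under long days the lpin2 libraries were scattered and the genotypes nearly met. Wild type stood at 6.69, 9.54 and 7.50 TPM. The knockout stood at 6.63, 3.82 and 5.07 TPM. The highest knockout library and the lowest wild-type library, both numbered 13, were 6.63 and 6.69 TPM, so the groups, apart like those of 15.8% of all tested genes, were apart by less than the spread within either (7.91 ± 1.47 and 5.17 ± 1.41). This long-day difference of -0.54 (SE 0.17) was not called. In the knockout every long-day library lay above every short-day library, as in 21.8% of genes counted in either direction, a mean 1.47 times as high (0.43, SE 0.17, not called). The photoperiod differences of the genotypes differed by 0.59 (SE 0.24), which was not called either (adjusted p = 0.569).

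The acyltransferase gene gpat3 (gene 101157182) showed a crossing pattern. In wild type it stood at 50.7, 44.8 and 45.0 TPM under short days. After 12 days of long days it stood at 32.8, 34.3 and 31.5 TPM. All long-day libraries were lower, in a comparison where 17% of all tested genes had groups apart in either direction, with means of 46.8 ± 3.36 and 32.9 ± 1.40 and a ratio of 1.42. The difference of -0.50 (SE 0.07) was called, where 0.192% of all tested genes were. That call was lost without any one of short-day replicates 1 (-0.44), 2 (-0.53) and 3 (-0.52) or long-day replicates 13 (-0.49) and 15 (-0.47).

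In the knockout the gpat3 groups stood the other way round. The short-day libraries were at 35.3, 39.9 and 39.4 TPM. The long-day libraries were at 42.3, 41.6 and 42.0 TPM, above every short-day value and with the smallest spread of any group of this gene. The difference was 0.13 (SE 0.07) and was not called, where 1.76% of all tested genes were. Groups separated in opposite directions in the genotypes, as here, were found for 120 of the 18218 tested genes (0.659%). The difference between the photoperiod differences was 0.63 (SE 0.10), did not pass over all genes (adjusted p = 0.124) and ranked number 10 by p, in a contrast where a single gene passed (0.00549%). Seen as genotypes, knockout libraries were all below wild type under short days (-0.29, SE 0.07) and all above it under long days (0.34, SE 0.07), and neither was called. With array weights, which let noisy libraries count less, the long-day difference (0.37, adjusted p = 0.0166) and the difference between the photoperiod differences (0.67, adjusted p = 0.0486) were called. Array weights also called more genes of the whole table. Between genotypes over both photoperiods, where gpat3 was not called, they called 719 of all tested genes, against 437 without them. Such counts with array weights are not given here for the comparisons in which the calls of gpat3 were gained. Only the long-day fish had been moved, 12 days before sampling, so day length cannot be told apart from the move itself or the time since it.

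**Figure D2:**
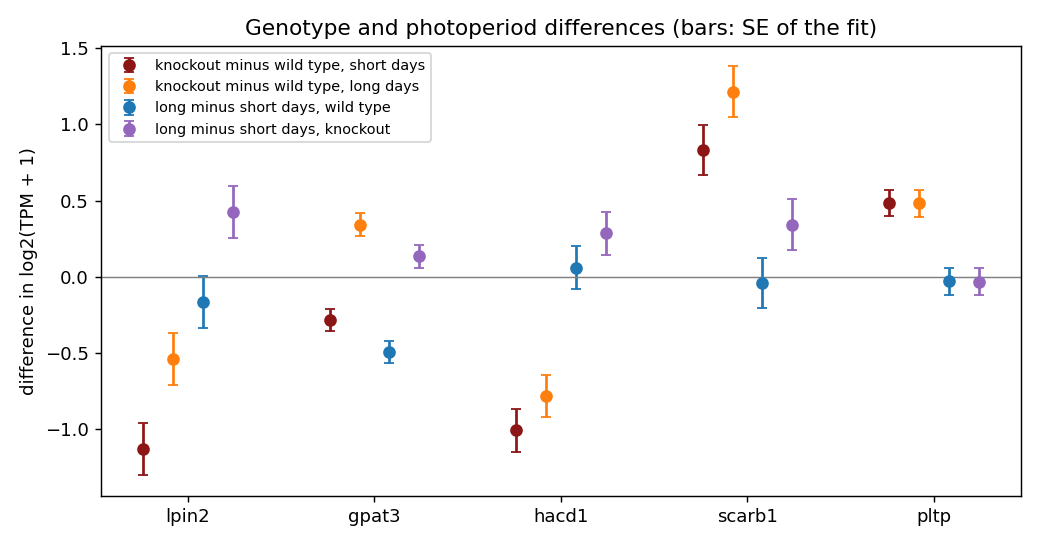
Difference in log2(TPM + 1) (vertical axis) for each member (horizontal axis) in the 4 comparisons of 2 groups, with bars for the SE of the fit. The genotype differences of lpin2 (-1.13 and -0.54), hacd1 (-1.01 and -0.78), scarb1 (0.83 and 1.21) and pltp (0.48 and 0.48) keep their sign in both photoperiods. Those of gpat3 (-0.29 and 0.34) do not.

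Relatives of these enzymes put the members' levels in context. The other lipin found in the table, lpin1, stood at 9.40 ± 1.56 and 9.05 ± 0.363 TPM in wild type and knockout under short days, and at 10.6 ± 1.23 and 7.94 ± 0.545 TPM under long days. None of its differences was called. Of the summed lipin level, lpin2 made up 48.9% ± 4.84 in short-day wild type and 28.0% ± 1.90 in the short-day knockout. The corresponding shares under long days were 42.5% ± 1.64 and 39.0% ± 5.27. The mitochondrial acyltransferase gpam stood at 33.9 ± 5.28 and 31.2 ± 5.95 TPM in short-day and long-day wild type. In the short-day and long-day knockout it stood at 42.1 ± 2.69 and 29.9 ± 0.491 TPM (-0.48, SE 0.13). Those knockout groups lay apart, as did those of 21.8% of all tested genes. The group means of gpat4, the other enzyme of the endoplasmic reticulum, were between 33.3 ± 3.33 and 35.9 ± 0.690 TPM. Neither gpam nor gpat4 was called in any comparison. The share of gpat3 in the sum of the 3 acyltransferase genes was 40.2% ± 2.58 and 34.0% ± 2.52 in short-day and long-day wild type, and 32.9% ± 2.27 and 39.3% ± 0.416 in the short-day and long-day knockout. In the knockout that share also reflects the lower long-day level of gpam.

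Neither agpat3, whose enzyme makes phosphatidic acid, nor dgat2, whose enzyme uses diacylglycerol, was called in any comparison. The lysophosphatidate acyltransferase gene agpat3 stood at 45.8 ± 1.07 and 54.5 ± 8.76 TPM in wild type and knockout under short days and at 43.5 ± 9.00 and 64.4 ± 3.89 TPM under long days. Its genotype difference over both photoperiods was 0.40 (SE 0.10, limma adjusted p = 0.0559). The gene dgat2, whose enzyme adds the last fatty acid of a triglyceride, stood at 17.4 ± 7.79 TPM in the short-day and 3.34 ± 2.67 TPM in the long-day knockout (-2.16, SE 0.58, adjusted p = 0.0966). Its wild-type groups, at 10.4 ± 4.48 and 6.72 ± 6.68 TPM, overlapped.

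The elongation gene hacd1 (gene 101162008) was lower in the knockout under both photoperiods. Under short days it stood at 35.4, 43.7 and 37.0 TPM in wild type and at 17.02, 19.5 and 19.5 TPM in the knockout. The wild-type mean was 2.07 times the knockout mean (38.7 ± 4.40 and 18.7 ± 1.45), a difference of -1.01 (SE 0.14) that was called. It remained called without short-day wild-type replicate 3 (-1.04) but not without replicate 2 (-0.92). Under long days it stood at 45.1, 37.3 and 38.7 TPM in wild type and at 24.0, 18.3 and 27.5 TPM in the knockout. These groups, too, did not overlap, with a ratio of means of 1.74 (40.4 ± 4.19 and 23.3 ± 4.66) and a difference of -0.78 (SE 0.14), called where 0.642% of all tested genes were. The long-day call was lost without any one of wild-type replicates 13 (-0.70), 14 (-0.84) and 15 (-0.81), of knockout replicates 13 (-0.82) and 14 (-0.63), or of short-day wild-type replicate 3, which enters only the shared spread (-0.78). Photoperiod differences were 0.06 (SE 0.14) in wild type and 0.28 (SE 0.14) in the knockout, with overlapping groups and no call.

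Levels of other genes of the elongation cycle were as follows. The dehydratase genes hacd2 and hacd3 had group means of 20.7 to 24.2 and 16.8 to 20.5 TPM, and hacd4 stood at 1.28 to 2.33 TPM. The reductase gene of the last step, tecr, stood at 49.4 to 55.5 TPM and the condensing enzyme gene elovl6 at 116 to 123 TPM. None of these, nor elovl5, was called in any of the 7 comparisons. The summed level of the 4 hacd genes was 83.9 ± 1.52 and 61.9 ± 2.95 TPM in wild type and knockout under short days, and 82.2 ± 4.01 and 63.9 ± 8.79 TPM under long days. Within that sum hacd1 held 46.1% ± 4.48 and 30.3% ± 3.19 under short days and 49.0% ± 2.65 and 36.2% ± 3.85 under long days.

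**Figure D3:**
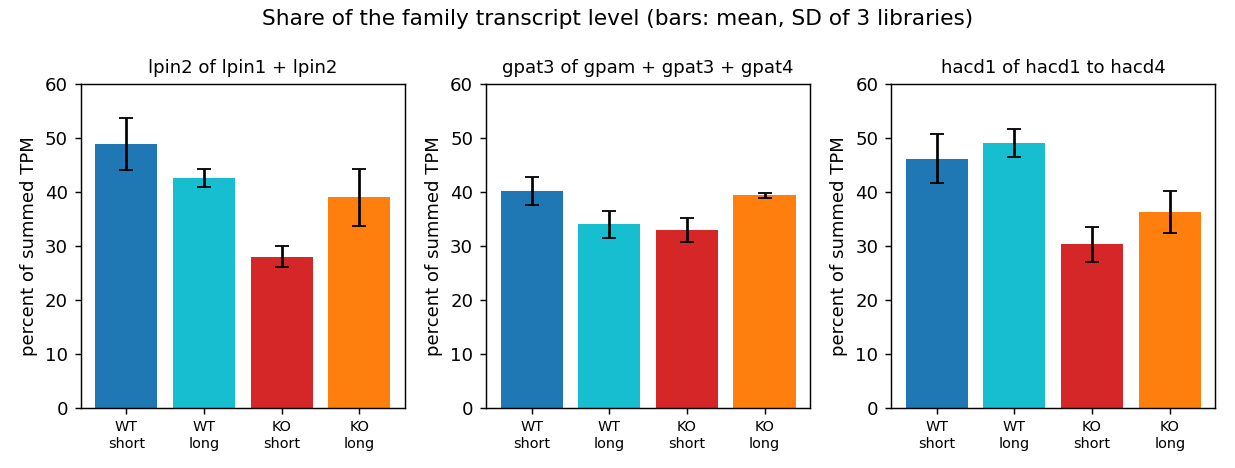
Share (percent, vertical axis) of the summed TPM of the family's genes that belongs to lpin2, gpat3 and hacd1, by group (horizontal axis); bars are means and whiskers the SD of 3 libraries. The share of hacd1 is 46.1% and 49.0% in wild type and 30.3% and 36.2% in the knockout, and the share of gpat3 falls between 32.9% and 40.2%.

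The lipoprotein receptor gene scarb1 (gene 100144361) was the member with the largest ratio between genotypes under long days. Wild type stood at 7.32, 6.41 and 6.27 TPM under short days and at 6.49, 6.75 and 6.09 TPM under long days. The knockout stood at 11.7, 16.7 and 10.2 TPM under short days and at 13.8, 16.2 and 19.2 TPM under long days. All wild-type libraries were within 6.09 to 7.32 TPM, whereas the knockout libraries spread over 10.2 to 19.2 TPM. Under short days the knockout mean was 1.93 times the wild-type mean (12.9 ± 3.41 and 6.67 ± 0.570), a difference of 0.83 (SE 0.17) that was not called (adjusted p = 0.0529). It was called in 4 of the 14 alternatives, with median-ratio scaling (0.87, adjusted p = 0.0488), array weights (0.86, adjusted p = 0.0384) or the replicate block (0.84, adjusted p = 0.0469), and without short-day knockout replicate 4 (0.97, adjusted p = 0.0439). Without short-day wild-type replicate 3 it was 0.80 (adjusted p = 0.186). Under long days the knockout mean was 2.55 times the wild-type mean (16.4 ± 2.74 and 6.44 ± 0.332), a difference of 1.21 (SE 0.17), which was called and stayed called without each compared library in turn. The photoperiod difference was -0.04 (SE 0.17) in wild type and 0.34 (SE 0.17) in the knockout, where the groups overlapped.

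The phospholipid transfer gene pltp (gene 101175233), the most abundant member, showed the smallest and steadiest genotype step of the 4. Under short days it stood at 47.6, 45.8 and 44.3 TPM in wild type and at 70.6, 59.8 and 63.7 TPM in the knockout. Under long days it stood at 49.5, 40.3 and 45.4 TPM in wild type and at 59.6, 62.4 and 67.7 TPM in the knockout. The highest wild-type library, at 49.5 TPM, lay below the lowest knockout library, at 59.6 TPM. The knockout mean was 1.41 times the wild-type mean under short days (64.7 ± 5.45 and 45.9 ± 1.64; 0.48, SE 0.09) and 1.40 times under long days (63.2 ± 4.11 and 45.1 ± 4.59; 0.48, SE 0.09). Both differences were called in the fit of all libraries, and both calls were lost when the 2 compared groups were fitted alone. The short-day call was lost without any one of the 6 compared libraries (0.42 to 0.54), and at 0.46 without wild-type replicate 3. The long-day call was lost without any one of the compared libraries other than wild-type replicate 13, or without short-day wild-type replicate 3. Photoperiod differences were -0.03 (SE 0.09) in both genotypes.

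Over both photoperiods together, the genotype differences were -0.84 (SE 0.12) for lpin2, -0.90 (SE 0.10) for hacd1, 1.02 (SE 0.12) for scarb1 and 0.48 (SE 0.06) for pltp. These calls were kept in each of the alternatives, including each library left out in turn; without short-day wild-type replicate 3 the differences were -0.85, -0.91, 1.00 and 0.47. For gpat3 the same difference was 0.03 (SE 0.05), since its genotype differences under short and long days had opposite signs. Over both genotypes no member was called between photoperiods, where 3.08% of all tested genes were, with differences from -0.18 (gpat3) to 0.17 (hacd1). With array weights gpat3 was called (-0.20, adjusted p = 0.0395). Without short-day wild-type replicate 3 the uncalled differences of gpat3 were -0.31 between genotypes under short days, -0.20 between photoperiods over both genotypes and 0.66 between the photoperiod differences. In wild type the photoperiod differences of lpin2, hacd1, scarb1 and pltp were then -0.19, 0.03, -0.08 and -0.05, and none was called.

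In order of level within each gene, the groups ranked as follows. For lpin2 the order of means was short-day wild type, long-day wild type, long-day knockout and short-day knockout, and only the wild-type groups overlapped in their libraries. For hacd1 it was long-day wild type, short-day wild type, long-day knockout and short-day knockout, with overlap between photoperiods in each genotype. For gpat3 it was short-day wild type, long-day knockout, short-day knockout and long-day wild type, and no neighbouring groups in that order overlapped. The orders of scarb1 (long-day knockout, short-day knockout, short-day wild type, long-day wild type) and pltp (short-day knockout, long-day knockout, short-day wild type, long-day wild type) had overlap between photoperiods and none between genotypes.

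Markers of other cell types were read beside these steps. In the list of microglia and macrophages, 4 of 11 genes matched a symbol, and their summed level was 312 to 383 and 317 to 434 TPM in short-day and long-day wild type, against 224 to 275 and 235 to 281 TPM in the knockout. The sum did not overlap between genotypes, as was so for 1.87% of single tested genes. Most of it was cd74, the invariant chain of antigen presentation, at 308 ± 36.4 and 329 ± 64.7 TPM in wild type and 229 ± 26.2 and 228 ± 22.2 TPM in the knockout. Of the 4 genes only cd74 was called over both photoperiods, where 2.4% of all tested genes were. The other 3 had means of 20.5 and 20.0 TPM (p2ry12), 6.4 and 4.4 TPM (ptprc) and 4.2 and 4.1 TPM (spi1) in wild type and knockout. Their limma adjusted p was 0.886, 0.123 and 0.968. The endothelial list, of which 6 of 12 matched, summed to 96.5 to 110 and 89.7 to 105 TPM in wild type and to 102 to 129 and 120 to 130 TPM in the knockout, with no gene called. These endothelial sums lay apart under long days and overlapped under short days. The pituitary list, of which 6 of 12 matched, summed to 3492 to 6615 and 5192 to 9462 TPM in wild type and to 2067 to 9231 and 4614 to 9185 TPM in the knockout, with pou1f1 called higher in the knockout. Of the radial glia and astroglia markers, of which 8 of 10 matched, s100b was called lower in the knockout. Their sums overlapped under short days but not under long days (6775 to 7179 TPM in wild type, 6215 to 6658 TPM in the knockout). The neuron sums lay apart only under short days (4323 to 4848 TPM in wild type, 4958 to 5203 TPM in the knockout). Those of meninges and fibroblasts lay apart only under long days (89 to 100 TPM in wild type, 103 to 116 TPM in the knockout). The matched liver markers, 3 of 10, summed to at most 3.89 TPM in every library. Their sums lay apart only under long days (0.56 to 0.85 TPM in wild type, 0.96 to 3.89 TPM in the knockout). Sums of the oligodendrocyte, erythrocyte, ependyma and skeletal muscle lists overlapped between genotypes under both photoperiods. Of single tested genes, 19.5% lay apart between genotypes under short days and 15.8% under long days. No matched marker of any of these lists was at 0 in all libraries. Between photoperiods over both genotypes, where 3.08% of all tested genes were called, the called markers were gad1 (neuron), lhb, cga and fshb (pituitary), and cyp19b and s100b (radial glia and astroglia). Mean cga was 354 and 1446 TPM under short and long days in wild type, and 285 and 1590 TPM in the knockout. Mean fshb was 89.6 and 988 TPM in wild type, and 184 and 621 TPM in the knockout. The part of these cell types in the members' differences was not tested.

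Other genes of lipid metabolism were taken from 7 lists. Of 233 listed genes other than the members, 141 matched a symbol and 130 were tested. In the genotype comparison over both photoperiods 2 of the 130 rose in the knockout (1.54%, beside 1.3% of all tested genes) and none fell, with a median difference of -0.01 against 0.00 over all genes. One was acbd5, a peroxisomal protein that binds very long acyl-CoA, from 40.1 ± 0.640 and 39.4 ± 2.74 TPM in short-day and long-day wild type to 51.4 ± 1.99 and 46.6 ± 2.49 TPM in the knockout (0.29, SE 0.05, adjusted p = 0.0122). The other was acads, the short-chain acyl-CoA dehydrogenase of mitochondria, at 33.1 ± 3.53 and 34.8 ± 1.96 TPM in wild type and 36.5 ± 2.17 and 47.8 ± 4.24 TPM in the knockout (0.29, SE 0.07, adjusted p = 0.0404). The call of acads was lost without any one library other than short-day wild-type replicate 3. Under short days alone acbd5 rose (0.35, SE 0.07, adjusted p = 0.0489) as the single called gene of the 130, a call lost without any one of the 6 compared libraries. With median-ratio scaling 1 of the 130 was called higher and 1 lower there. Under long days alone limma called none, with 20 at an unadjusted p under 0.05, beside 11.3% of all tested genes.

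None of the 19 tested genes of the lipoprotein list other than scarb1 and pltp was called in any of the 7 comparisons. Between genotypes over both photoperiods 3 of the 19 had an unadjusted p under 0.05 by limma, beside 15.6% of all tested genes. Lipoprotein lipase, lpl, stood at 73.0 ± 4.57 and 87.9 ± 8.42 TPM in wild type and knockout under short days and at 87.0 ± 5.71 and 85.9 ± 6.32 TPM under long days. The scavenger receptor gene cd36, a relative of scarb1, had group means of 14.8 to 17.02 TPM, cetp, whose protein belongs to the same family as that of pltp, of 6.14 to 6.80 TPM, and lcat, which esterifies the cholesterol of lipoproteins, of 1.43 to 2.33 TPM. The hepatic lipase gene lipc was listed at 0 in every library.

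**Figure D4:**
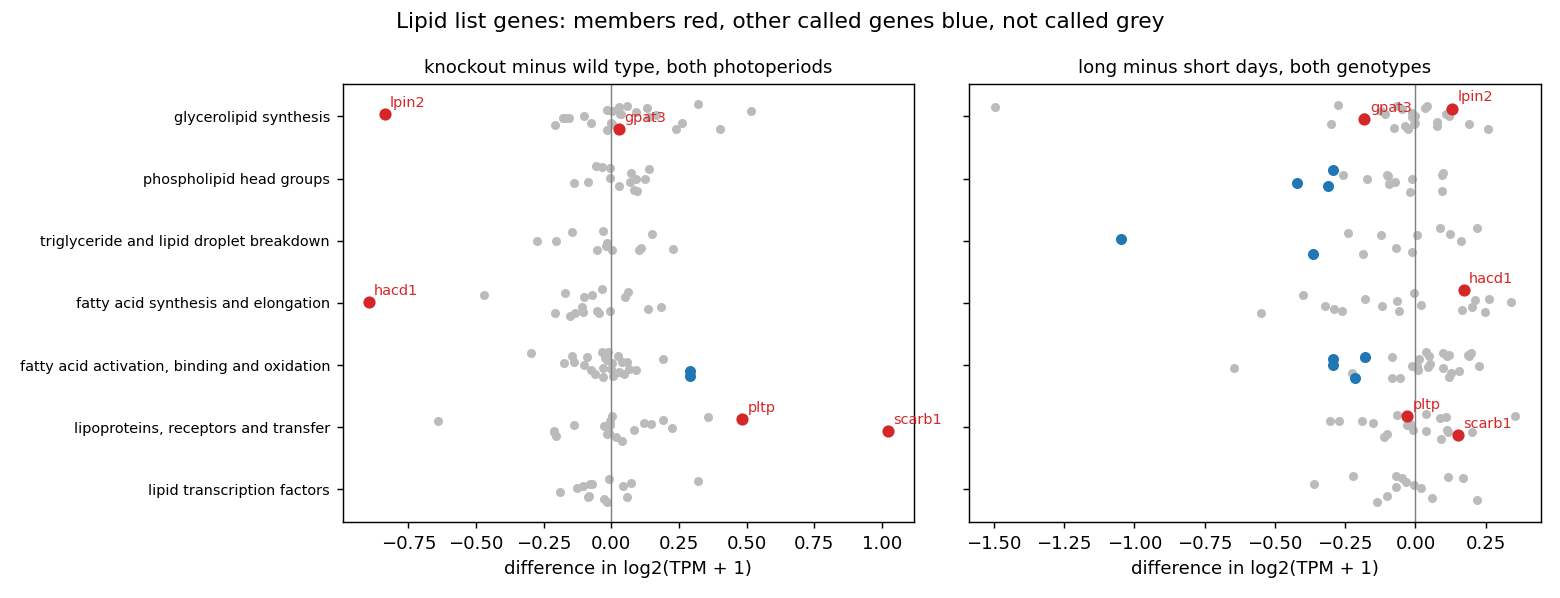
Difference in log2(TPM + 1) (horizontal axis) of the tested genes of the 7 lipid lists (rows) between genotypes (left) and between photoperiods (right); members are red, other called genes blue and genes not called grey, and vertical scatter within a row only separates the points. Of the genes other than members, 2 are called on the left, both higher in the knockout, and 9 on the right, all lower under long days (5 higher and 7 lower with median-ratio scaling).

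Between photoperiods over both genotypes 9 of the 130 fell under long days and none rose (6.92%, beside 1.82% of all tested genes that fell). With median-ratio scaling 5 of the 130 were called higher and 7 lower, so that this one-sided split depends on the scaling, and without short-day wild-type replicate 3 the count was 6, all lower. The list of phospholipid head groups held 3 of the 9, and 11 of its 14 tested genes were not called. The ethanolamine kinase etnk2 stood at 44.6 ± 2.94 and 30.2 ± 4.03 TPM under short and long days in wild type and at 44.5 ± 4.19 and 36.2 ± 1.01 TPM in the knockout (-0.42, SE 0.07, limma adjusted p = 0.0102). The gene of the next enzyme, pcyt2, which activates phosphoethanolamine with CTP, stood at 76.0 ± 2.12 and 62.9 ± 2.44 TPM in wild type and 78.8 ± 4.16 and 63.1 ± 4.40 TPM in the knockout (-0.29, SE 0.05, adjusted p = 0.00941). The phosphotransferase selenoi, which completes phosphatidylethanolamine from diacylglycerol, stood at 34.5 ± 0.991 and 26.7 ± 2.19 TPM in wild type and 35.6 ± 5.00 and 29.3 ± 0.815 TPM in the knockout (-0.31, SE 0.07, adjusted p = 0.0371). The calls of etnk2 and pcyt2 were kept in every alternative, and that of selenoi was lost without any one of 10 libraries. The other ethanolamine kinase gene, etnk1, had a difference of -0.26 and was not called.

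The list of triglyceride and lipid droplet breakdown held 2 of the 9, and 10 of its 12 tested genes were not called. The monoacylglycerol lipase abhd6 stood at 57.0 ± 4.03 and 42.9 ± 1.62 TPM under short and long days in wild type and at 61.8 ± 3.44 and 48.9 ± 2.10 TPM in the knockout (-0.37, SE 0.05, limma adjusted p = 0.00459), a call kept in every alternative. The gene g0s2, whose protein inhibits adipose triglyceride lipase in mammals, stood at 14.7 ± 1.95 and 5.06 ± 1.55 TPM in wild type and at 10.1 ± 5.69 and 5.26 ± 0.441 TPM in the knockout (-1.05, SE 0.22, adjusted p = 0.0291). The other 4 belonged to the 29 tested genes of fatty acid activation, binding and oxidation. The electron carrier subunit gene etfa fell (-0.18, SE 0.04, adjusted p = 0.0277), as did the acyl-CoA synthetase acsl4 (-0.29, SE 0.07, adjusted p = 0.0435) and the Golgi acyl-CoA-binding protein acbd3 (-0.21, SE 0.05, adjusted p = 0.0466). The calls of g0s2, etfa, acsl4 and acbd3 were each lost without any one of at least 7 libraries, among them long-day knockout replicate 14. With 1 library left out the count of 9 ranged from 3, without that replicate, to 9.

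Within the knockout 8 of the 130 were called between photoperiods (6.15%, beside 1.76% of all tested genes). Those that rose under long days were mbtps2, the site-2 protease that releases SREBP (0.42, SE 0.08, adjusted p = 0.0218), dgkb, a diacylglycerol kinase (0.44, SE 0.08, adjusted p = 0.0325), and nr1h3, the oxysterol receptor LXR alpha (0.41, SE 0.09, adjusted p = 0.0413). Those named here that fell were acsbg2 (-0.50, SE 0.10, adjusted p = 0.0396), acsl4 (-0.47, SE 0.10, adjusted p = 0.0403), pcyt2 (-0.32, SE 0.07, adjusted p = 0.0431) and abhd6 (-0.33, SE 0.07, adjusted p = 0.0456). The receptor gene nr1h3 stood at 19.5 ± 1.45 TPM in the short-day knockout and at 25.2 to 26.6 TPM on average in the other groups. The count of 8 was 0 without any one of short-day knockout replicates 3 and 4 or long-day knockout replicates 13 and 14, 1 without short-day knockout replicate 1, and 4 without long-day knockout replicate 16 or short-day wild-type replicate 3. In wild type gpat3 was the only gene called between photoperiods among the members and the tested list genes. Of the 130 list genes limma called none, with 22 at an unadjusted p under 0.05, beside 11.6% of all tested genes.

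The members were also placed along the genome by the order of genes in the RefSeq assembly ASM223467v1. The genes lpin2 and hacd1 lay on the same chromosome with 10 genes of the table between them, 8 of them tested. On that chromosome 36 of 529 tested genes (6.81%) were called between genotypes over both photoperiods, 17 higher and 19 lower, the highest share of the 24 chromosomes with at least 100 tested genes. Of the 20 tested genes nearest to hacd1, 3 were called (15%, beside 2.4% of all tested genes). Among them was lpin2, itself a member picked with its values known. The others were the methyltransferase gene nsun6 (8.09 and 5.88 TPM on average in wild type and knockout) and the adjacent colec12, a scavenger receptor gene that was higher in the knockout (3.32 and 5.85 TPM). The 20 tested genes nearest to lpin2 partly overlap these. Of them 2 were called (10%), the member hacd1 and again colec12. The genes gpat3 and scarb1 shared another chromosome with 76 tested genes between them, and 25 of 755 tested genes there were called (3.31%). Near scarb1, 2 of 20 were called, the ubiquitin gene ubb and acads, and near gpat3 none of 20. Near pltp, 3 of 20 were called, all higher in the knockout: ptpdc1 (21.0 and 37.6 TPM), hdac11 (29.3 and 38.9 TPM) and the adjacent ketohexokinase gene khk (13.5 and 19.0 TPM). On the chromosome of pltp 21 of 888 tested genes were called (2.36%). These neighbours are named because they were called, after their values were seen. The counts on each chromosome include the called members themselves.

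**Figure D5:**
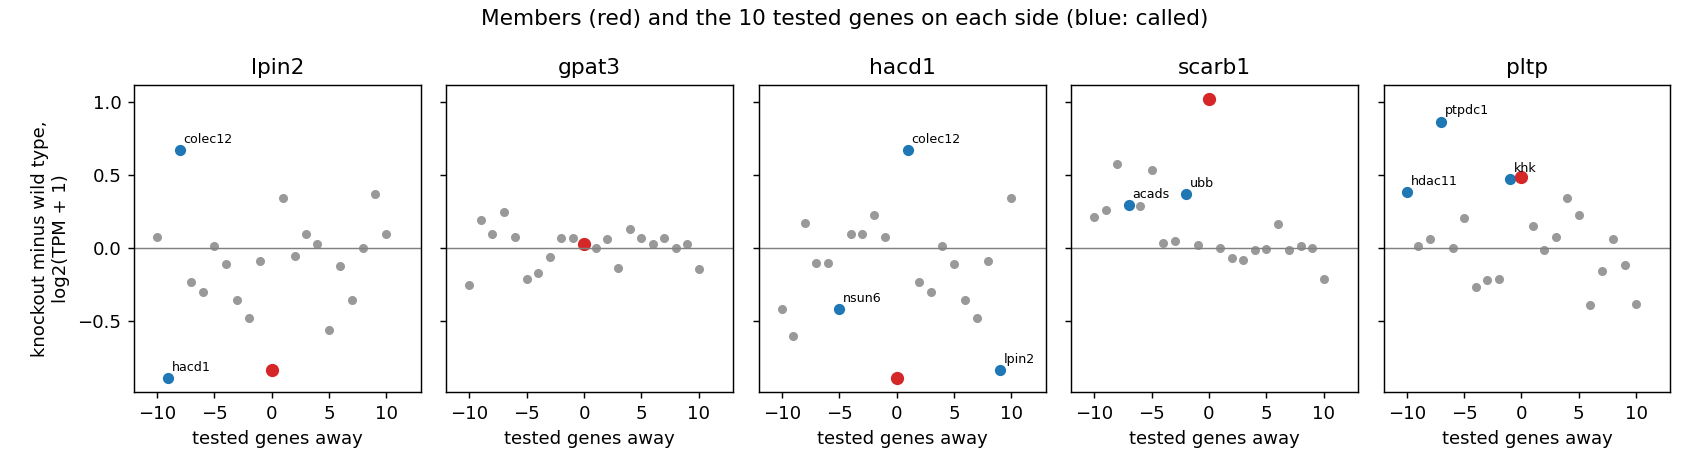
Difference in log2(TPM + 1) between genotypes over both photoperiods (vertical axis) for each member (red, at 0) and the 10 tested genes on each side in chromosome order (horizontal axis, genes away); called neighbours are blue and named. For lpin2 and hacd1 the called neighbours have both signs, for scarb1 and pltp they share the member's sign, and gpat3, at 0.03, has none.

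By the likeness of their profiles over the 12 libraries, each member was set beside the 3 tested genes with a symbol whose log2(TPM + 1) had the highest Pearson correlation with it, given with Spearman's rho. These libraries share their genotype groups, so a gene that separates the genotypes will score high. For lpin2 they were c20h3orf58 (r = 0.95, rho = 0.94), the peroxisome assembly gene pex2 (r = 0.93, rho = 0.83) and plekhm1 (r = 0.93, rho = 0.88). For hacd1 they were nop16 (r = 0.93, rho = 0.91), usp12 (r = 0.93, rho = 0.85) and again pex2 (r = 0.93, rho = 0.83). The profile of pex2 was that of a gene lower in the knockout, at 16.9 and 18.0 TPM in short-day and long-day wild type and 7.80 and 11.6 TPM in the knockout. The genes c20h3orf58, pex2 and usp12 lay on the chromosome of lpin2 and hacd1, with 49 to 189 tested genes between each and its member.

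The remaining members had other companions. For scarb1 they were zbtb7c (r = 0.94, rho = 0.86), on its own chromosome, sowahc (r = 0.93, rho = 0.84) and rflnb (r = 0.93, rho = 0.81). For pltp they were sowahc (r = 0.93, rho = 0.76), trpv1 (r = 0.91, rho = 0.83) and rprm (r = 0.90, rho = 0.84). The gene sowahc, shared by both, stood at 25.6 and 26.5 TPM in wild type and 121 and 99.9 TPM in the knockout. The level of trpv1 was low, at 0.157 and 0.197 TPM in wild type and 0.89 and 1.08 TPM in the knockout. It therefore met the filter of 1 TPM through knockout libraries alone. For gpat3 they were kctd9 (r = 0.94, rho = 0.85), the UDP-galactose transporter slc35a2 (r = 0.94, rho = 0.97) and the atypical protein kinase C gene prkci (r = 0.92, rho = 0.84). Picked by its correlation with gpat3, slc35a2 was likewise lowest in long-day wild type, at 10.4 TPM. It stood at 13.4 TPM in short-day wild type and at 11.1 and 12.2 TPM in the short-day and long-day knockout.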

How the data were processed

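Per the labels, polyadenylated RNA was made into strand-specific paired-end libraries. STAR 2.7.9a and RSEM 1.3.1 appear in the submitters' processing notes, their roles unstated; genome build and annotation: not given in the sources used here. The authors deposited TPM per gene and library. All 26663 gene IDs matched RefSeq ASM223467v1, used for symbols and gene order only. Genes with at least 1 TPM in at least 3 libraries (18218) entered as log2(TPM + 1) into 1 limma fit (3.58.1, R 4.3.3) of 4 group means with a mean-variance trend. The code was run on simulated data with independent noise and changes larger than most called here. That run does not show how well small differences are called. The pseudocount understates changes of low genes. The 7 two-sided contrasts were adjusted by Benjamini-Hochberg over all tested genes. The members and lists were chosen with earlier results of these data known. Named were the members, 28 relatives and partners where tested, up to 4 called genes per list and contrast, and 3 genes most like each member. List counts leave out the members; 1 counted gene is not reported here by name. Alternatives changed pseudocount (0.1), filter (above 0 in any library, at least 5 TPM), scaling (median ratio), trend, library weights, groups fitted, replicate block and libraries left out.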

Additional observations from a re-analysis of the deposited data

Results flagged for a closer look

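The acyltransferase gene gpat3 was singled out because its photoperiod groups were apart in opposite directions in the 2 genotypes: all long-day libraries were lower in wild type (31.5 to 34.3 against 44.8 to 50.7 TPM) and all were higher in the knockout (41.6 to 42.3 against 35.3 to 39.9 TPM). The difference between these differences was 0.63 in log2(TPM + 1), which did not pass limma's test over all genes (adjusted p = 0.124, with 0.0486 to 0.285 over the alternatives). Since gpat3 was picked with these values known, this is a description.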

How the results depend on the processing

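The calls of lpin2, hacd1, scarb1 and pltp between genotypes over both photoperiods, and that of scarb1 under long days, held in every alternative run, and no called value changed sign. With libraries left out in turn, other called differences ranged from -0.53 to -0.44 (gpat3, photoperiod, wild type), -1.16 to -1.10 (lpin2, genotype, short days), -1.07 to -0.92 and -0.91 to -0.63 (hacd1, genotype, short and long days), and 0.42 to 0.54 and 0.41 to 0.55 (pltp, likewise). Other lost calls kept their sign: gpat3 in wild type with median-ratio scaling (-0.44), no trend or the compared groups alone (-0.50); pltp with median-ratio scaling (0.53 under short and 0.44 under long days), no trend or the compared groups alone (0.48 in each); hacd1 under long days with the filter above 0, no trend or the compared groups alone (-0.78). Calls were also gained: that of scarb1 between genotypes under short days with median-ratio scaling (0.87), array weights (0.86), the block (0.84) or without short-day knockout replicate 4 (0.97), and with array weights those of gpat3 between genotypes under long days (0.37), between photoperiods over both genotypes (-0.20) and between the photoperiod differences (0.67). Counts of called list genes moved too, as did counts over all tested genes. Between genotypes over both photoperiods the count over all tested genes was 437. It became 374 without the trend, 375 with the filter at 5 TPM, 514 with median-ratio scaling and 719 with array weights. Such counts for the other comparisons are not given here. For the list genes in wild type the photoperiod count of 0 became 2 with the filter at 5 TPM, 5 with array weights and 0 to 1 with libraries left out. In the knockout 8 became 1 without the trend, 0 with the compared groups alone and 0 to 4 with libraries left out, one of which, short-day wild-type replicate 3, was left out after seeing the data. Over both genotypes 9, all lower, became 12 with median-ratio scaling (5 higher, 7 lower), 15 with array weights (4 higher, 11 lower) and 3 to 9 with libraries left out. Between genotypes, the short-day count of 1 became 0 with pseudocount 0.1, no trend, the compared groups alone or any compared library left out, and 2 with the filter at 5 TPM, median-ratio scaling, array weights or the replicate block; the long-day count of 0 became 6 with array weights and 0 to 1 with libraries left out; and 2 over both became 1 without the trend and 1 to 3 with libraries left out. The cause of these changes was not tested. Same-numbered wild-type and knockout libraries deviated together little (r of -0.05 to 0.09 across genes). That cannot show whether the numbers mark a shared tank or day, which the labels do not state. With the block the short-day genotype difference of scarb1 passed the limma threshold (0.84, adjusted p = 0.0469), and no other call of a member changed. With 3 libraries a group and no counts, the spread between libraries limits what can be called.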

Other observations

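In the contrast of the photoperiod differences between genotypes, no tested lipid list gene was called by limma, and 18 of 130 had an unadjusted p under 0.05, beside 7.93% of all tested genes. Of the 130, 68.5% had a difference above 0 (a higher long-day to short-day difference in the knockout than in wild type), beside 64.6% of all tested genes. All 12 tested genes of the list of triglyceride and lipid droplet breakdown had one, with a median of 0.25. Not every gene of that list encodes an enzyme of breakdown. It also holds the diacylglycerol kinase gene dgkb, and g0s2, whose protein inhibits a lipase in mammals. Of the 29 genes of fatty acid activation, binding and oxidation 24 had one, with a median of 0.19. The median over all tested genes was 0.08. Of the 25 tested genes of glycerolipid synthesis 11 had one, with a median of -0.02, and in the other 4 lists 63.2% to 71.4% of the genes had one.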
